A study of Homo sapiens with 15 samples.

Results

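PLCB1 and PLCB4 lie next to each other, in the same orientation, on the short arm of chromosome 20, and encode phospholipases C beta. The peaks of both histone marks over these genes are described here across 3 breast cancer cell lines, with the related genes PLCB2, on chromosome 15, and PLCB3, on chromosome 11, for contrast. A peak was counted for a gene when it had at least 1 base between 2 kb upstream of the GENCODE gene body and its end. Of 84767 peaks in the series, 33 met this rule, 22 of them at PLCB1 and PLCB4 and 11 at PLCB2 and PLCB3. PLCB1 and PLCB4 were selected on earlier results of these libraries. In these, promoter H3K4me3 was far above the parental line, at PLCB1 in both metastatic derivatives and at PLCB4 in the brain metastatic one. Their H3K4me3 values and their H3K27ac differences from the parental line are therefore given as descriptions, with no test.

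ChIP-seq of H3K4me3, found at the starts of active genes, and of H3K27ac, found there and at active enhancers, was carried out in the human breast cancer line MDA-MB-231, which is triple-negative, and in its derivatives. The groups were the parental line (Par), the lung metastatic sub-population LM2 and the brain metastatic sub-population BrM2, all untreated and grown as monolayers for 3 days. LM2 and BrM2 were obtained by selection in mice, and each is represented by 1 population, so a difference between lines is a difference between single derivations. Each line had 2 libraries per mark, which the methods of the study call biological replicates. The labels do not say whether they came from separate cultures, and errors and p-values measure the spread between these libraries.

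Phospholipases C beta are effectors of G protein-coupled receptors. They are activated by the alpha subunits of the Gq family, and some of them also by beta-gamma dimers. The enzymes cleave the membrane lipid PIP2 into IP3, which opens calcium channels of the endoplasmic reticulum, and diacylglycerol, which activates protein kinase C. PLCB1 and PLCB4 are both best known from the nervous system, PLCB2 from blood cells and taste cells, and PLCB3 is expressed widely.

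Total counts in peaks ranged from 3489607 to 9839629 for H3K4me3 and from 1994996 to 6450028 for H3K27ac, the lowest being replicate 2 of BrM2. Levels are given as CPM, the count in a peak scaled to the total count in all peaks of the library. Line means of promoter H3K4me3 lay between 40.3 and 278 CPM at 6 of 6 mesenchymal markers and between 3.68 and 122 CPM at 8 epithelial markers. Of the latter, the cadherin gene CDH1 had 3.68 to 7.01 CPM, whereas the keratin gene KRT19 had 59.7 to 122 CPM. All 5 luminal or receptor markers (ESR1, PGR, GATA3, FOXA1 and ERBB2) had a promoter H3K4me3 peak too. Since peaks were called on merged libraries, such a peak need not be present in each line. Against Par, at a DESeq2 adjusted p under 0.05, 1 of these 5 markers was higher in LM2 and 2 in BrM2. Among epithelial markers 1 was lower in LM2, and 1 was higher and 1 lower in BrM2. Over 13780 genes, 202 were higher and 68 lower in LM2, and 246 and 108 in BrM2. The share of cells that carry a mark and the amount of mark per cell cannot be told apart in these bulk samples.

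Sequences are shown for intragenic elements at which H3K27ac differed between the lines, and for the PLCB3 promoter as the contrast. The elements were chosen after their values were seen, outside the canonical starts, as the PLCB1 peak with the highest mean CPM and the PLCB4 peaks with the largest fold change of LM2 among those with an adjusted p, the highest LM2 level and the largest fold change of BrM2. Distances in kb are from the canonical start of the gene to the nearest edge of the peak, and the window lies within the peak. The first 4 are the central 300 bases of H3K27ac peaks on the plus strand of GRCh37, and the last is the RefSeq promoter window of PLCB3 in GRCh38.p14, from 250 bases before to 50 bases after its start. Of the 4 genes, only PLCB3 had an entry in the RefSeq promoter table. Capitals mark matches on either strand, and neighbouring matches can share bases. The motifs searched were the TATA box with the letters TATAAA, the GC box with the letters GGGCGG, the ETS motif with the letters CCGGAAG, the cyclic AMP response element with the letters TGACGTCA, the AP-1 motif with the letters TGANTCA and the E-box with the letters CACGTG.
PLCB1 intron, in the peak at +11.9 kb, chr20:8127032-8127331: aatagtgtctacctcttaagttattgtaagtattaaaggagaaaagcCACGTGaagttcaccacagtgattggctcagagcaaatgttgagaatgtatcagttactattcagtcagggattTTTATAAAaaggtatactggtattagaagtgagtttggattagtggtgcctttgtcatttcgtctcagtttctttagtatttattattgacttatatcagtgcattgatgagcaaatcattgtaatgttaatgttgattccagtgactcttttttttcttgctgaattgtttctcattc
PLCB4 intron, in the peak at +171.4 kb, chr20:9221408-9221707: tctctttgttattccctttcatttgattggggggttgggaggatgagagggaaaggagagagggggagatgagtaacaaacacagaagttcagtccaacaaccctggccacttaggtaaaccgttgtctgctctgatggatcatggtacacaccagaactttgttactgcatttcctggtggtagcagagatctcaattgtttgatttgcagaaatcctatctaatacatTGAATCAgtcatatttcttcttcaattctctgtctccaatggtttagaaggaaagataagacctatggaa
PLCB4 intron, in the peak at +241.5 kb, chr20:9292115-9292414: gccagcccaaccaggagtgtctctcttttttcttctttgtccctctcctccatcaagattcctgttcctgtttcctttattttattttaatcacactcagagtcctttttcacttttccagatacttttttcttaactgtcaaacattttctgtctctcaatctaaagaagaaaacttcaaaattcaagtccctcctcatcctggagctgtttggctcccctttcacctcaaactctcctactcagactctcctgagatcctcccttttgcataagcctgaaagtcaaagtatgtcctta
PLCB4 exon and introns, in the peak at +339.8 kb, chr20:9389585-9389884: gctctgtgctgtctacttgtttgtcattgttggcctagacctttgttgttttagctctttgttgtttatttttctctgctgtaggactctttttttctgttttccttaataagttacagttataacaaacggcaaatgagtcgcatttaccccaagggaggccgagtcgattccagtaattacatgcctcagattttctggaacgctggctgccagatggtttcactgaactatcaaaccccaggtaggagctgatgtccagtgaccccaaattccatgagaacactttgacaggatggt
PLCB3 promoter, plus strand, chr11:64251280-64251579: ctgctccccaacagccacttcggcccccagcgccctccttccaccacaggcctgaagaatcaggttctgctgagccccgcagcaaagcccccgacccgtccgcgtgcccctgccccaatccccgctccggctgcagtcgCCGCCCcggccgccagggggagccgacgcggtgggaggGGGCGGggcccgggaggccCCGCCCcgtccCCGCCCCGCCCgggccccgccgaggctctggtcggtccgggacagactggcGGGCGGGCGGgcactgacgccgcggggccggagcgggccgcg
The windows of PLCB1 and PLCB4 had a GC content of 33.3%, 41.7%, 40.7% and 43.0% in the order shown, against a median of 47.0% over the 62193 windows of H3K27ac peaks. The PLCB3 promoter had a GC content of 79.3% and 7 GC boxes. A GC box occurred in 45% of all RefSeq promoters. Over the 18 H3K27ac peaks of PLCB1 and PLCB4, AP-1 letters occurred in 4 of the 7 PLCB4 windows, those at +116.1, +149.8, +171.4 and +275.7 kb, and in 0 of the 11 PLCB1 windows, while 14.1% of all H3K27ac windows held them. TATA box letters occurred in 7 of the 18 windows and in 17.4% of all. A match of letters is a description and does not show that a factor bound there.

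H3K4me3 at the PLCB1 start was low in Par and high in both metastatic sub-populations. The peak over the canonical start, chr20:8111872-8114232 in hg19, had 3.44 and 3.43 CPM in the Par libraries, 59.7 and 50.8 in LM2, and 34.0 and 32.3 in BrM2. All LM2 and BrM2 libraries lay above both Par libraries, and LM2 lay above BrM2. Pooled over the libraries of a line, the level was 15.6-fold higher in LM2 than in Par (95% counting interval 11.1 to 22.6) and 9.61-fold higher in BrM2 (6.80 to 14.0). The intervals cover counting error only. The fitted log2 fold changes against Par were 4.08 ± 0.45 (SE) in LM2 and 3.24 ± 0.45 in BrM2, and that of BrM2 against LM2 was -0.84 ± 0.38.

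A pair of weaker H3K4me3 peaks of PLCB1 lay within 2 kb of other protein-coding transcript starts of the gene. At chr20:8095151-8095762, 17.2 kb upstream of the canonical start, the libraries had 0.860 and 1.04 CPM in Par, 5.51 and 4.78 in the LM2 libraries, and 1.53 and 4.46 in BrM2. At chr20:8581608-8582106, in an intron 468.7 kb downstream, they had 0.287 and 0 CPM in Par, 2.52 and 3.46 in the LM2 libraries, and 1.31 and 4.59 in BrM2. Both peaks were above Par in every LM2 and BrM2 library, but with wide spread between the BrM2 libraries. The second rested on 1 count in Par, and its ratio to Par was 32.3 in LM2 (95% counting interval 5.52 to 1306) and 34.7 in BrM2 (5.90 to 1401).

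At PLCB4, H3K4me3 was high in BrM2 and near the lowest promoters in the other lines. The only H3K4me3 peak of the gene, chr20:9048467-9050286 over its canonical start, had 0.573 and 0.596 CPM in Par, 0.689 and 1.73 in the LM2 libraries, and 49.1 and 43.6 in BrM2. The Par and LM2 libraries held between 2 and 17 counts each and the BrM2 libraries 225 and 352. BrM2 stood 77.6-fold above Par (95% counting interval 35.4 to 212) and 32.4-fold above LM2, whereas LM2 and Par were separated by a ratio of 2.40 whose interval reached 0.928. The log2 fold changes against Par were 6.29 ± 0.73 in BrM2 and 1.18 ± 0.81 in LM2.

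Expressed per kb of peak, so that genes can be compared, H3K4me3 at the PLCB4 start went from percentile 0.3 of the promoter peaks of 13780 protein-coding genes in Par to percentile 48.2 in BrM2, and stood at 0.8 in LM2. For PLCB1 the percentiles were 1.6 in Par, 45.6 in LM2 and 17.3 in BrM2. PLCB3 stood between percentiles 61.0 and 74.0 in all lines. The levels that follow are at the peak nearest the canonical start of each gene. In Par the order of the levels per kb was PLCB3 (35.7 ± 0.0491 SD), PLCB1 (1.45 ± 0.0040), PLCB2 (0.480 ± 0.679) and PLCB4 (0.321 ± 0.0088), and PLCB2 and PLCB4 did not differ beyond their spread. In LM2 it was PLCB3 (30.3 ± 3.00), PLCB1 (23.4 ± 2.65), PLCB2 (0.698 ± 0.0599) and PLCB4 (0.664 ± 0.404), with the lower pair again within their spread. In BrM2 PLCB4 (25.5 ± 2.13) came after PLCB3 (35.9 ± 6.06) and before PLCB1 (14.1 ± 0.511) and PLCB2 (5.41 ± 3.66), each value being a mean of 2 libraries. The order depends on the peak used for PLCB2. Its peak at an internal start, chr15:40583115-40583963, had 7.91 CPM per kb in Par, 13.5 in LM2 and 9.74 in BrM2. By that peak PLCB2 stood above PLCB1 in Par and above PLCB4 in Par and LM2.

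**Figure D1:**
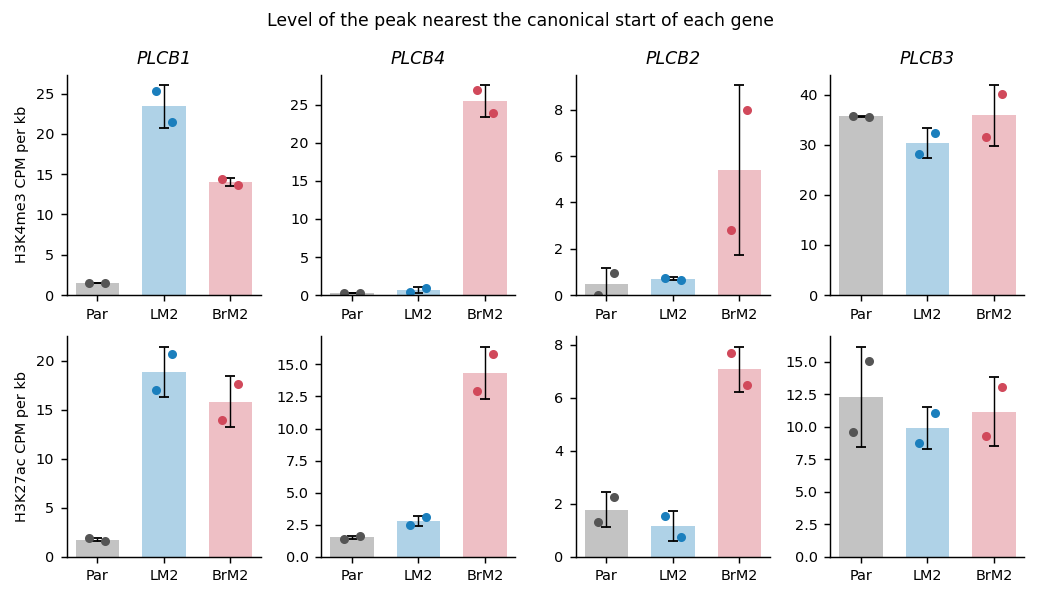
H3K4me3 (top) and H3K27ac (bottom) at the peak nearest the canonical start of each gene, in CPM per kb of peak, for Par, LM2 and BrM2. Points are the 2 libraries, bars their mean and error bars the SD. PLCB1 is higher in LM2 and BrM2 than in Par, PLCB4 reaches 25.5 CPM per kb of H3K4me3 only in BrM2, and PLCB3 stays between 30.3 and 35.9 CPM per kb of H3K4me3.

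Since these contrasts chose the genes, the calls at PLCB1 and PLCB4 are counted without reading anything from them. At an adjusted p under 0.05 (DESeq2, adjusted over all peaks of the mark), 1 of the 4 H3K4me3 peaks was called higher in LM2 than in Par and 2 in BrM2, against 1.97% and 2.91% of all tested H3K4me3 peaks. For BrM2 against LM2, 1 of the 4 was called higher, the PLCB4 peak, against 2.15%. Both libraries of LM2 exceeded both of Par at all 4 peaks, as they did at 19.1% of all peaks, and the same held for BrM2, against 21.4%. With the replicate number as a block, 3 of the 4 were called in LM2 and 3 in BrM2 against Par, where 2896 and 3953 of all 22572 H3K4me3 peaks were called.

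H3K27ac had 11 peaks at PLCB1, with a summed length of 11.5 kb, which lay between 17.0 kb upstream and 721.9 kb downstream of the canonical start, and was low in Par throughout. Summed over the 11 peaks, H3K27ac was 5.30 ± 1.22 CPM (SD, n = 2) in Par, 77.7 ± 8.18 in LM2 and 57.1 ± 6.47 in BrM2. The peak over the canonical start, chr20:8112842-8113806, had 1.82 and 1.57 CPM in Par, 16.4 and 19.9 in the LM2 libraries, and 13.5 and 17.0 in BrM2. LM2 and BrM2 overlapped here, and both were above Par, by 10.4-fold (95% counting interval 6.04 to 19.4) and 8.63-fold (4.88 to 16.4). The peak over the upstream start, chr20:8095417-8095897, had 1.14 and 0.261 CPM in Par, 4.03 and 1.33 in the LM2 libraries and 0.510 and 3.01 in BrM2, and BrM2 overlapped Par.

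The broadest H3K27ac peak of the gene, and the one with the highest total, lay downstream of the start, in an intron at chr20:8124811-8129552. Per kb of peak its mean level was 5.74 CPM in LM2 and 4.05 in BrM2, below the 18.9 and 15.8 of the start peak. It is within 2 kb of another PLCB1 transcript start and had 1.37 and 0.522 CPM in Par, 25.4 and 29.0 in the LM2 libraries, and 16.3 and 22.1 in BrM2, with no overlap between lines. Its level was 27.5-fold higher in LM2 than in Par (95% counting interval 13.7 to 64.3) and 18.7-fold higher in BrM2 (9.18 to 44.5). Further into the gene, the intronic peak chr20:8203808-8206604, 90.9 kb from the start, had 0.684 and 0.261 CPM in Par, 9.77 and 10.9 in the LM2 libraries, and 9.18 and 6.52 in BrM2. At both of these peaks, as at the start, all LM2 and BrM2 libraries lay above Par.

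Among the weaker peaks of PLCB1, that at chr20:8412488-8412865 was highest in LM2, with 2.79 and 6.65 CPM against 1.27 and 1.00 in BrM2 and 0.228 and 0 in Par. The peak at chr20:8123511-8123882 had 0.228 and 0.783 CPM in Par, 1.86 and 3.72 in the LM2 libraries, and 1.53 and 3.51 in BrM2. At chr20:8135475-8135813 both Par libraries held 0 counts, and LM2 was at least 6.97-fold and BrM2 at least 4.63-fold higher than a floor of 3 counts over the 2 Par libraries. One peak went the other way between the metastatic lines, chr20:8627288-8627830, 514.4 kb from the start, with 1.55 and 1.86 CPM in LM2 and 3.82 and 3.51 in BrM2. The other 3 PLCB1 peaks had line means of at most 0.245 CPM in Par and between 1.13 and 2.77 CPM in LM2 and BrM2.

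At PLCB4, the H3K27ac peak over the start, chr20:9048829-9050130, had 1.82 and 2.09 CPM in Par, 3.26 and 3.99 in the LM2 libraries, and 16.8 and 20.6 in BrM2. As with H3K4me3, BrM2 stood apart, 9.28-fold above Par (95% counting interval 5.46 to 16.8) and 5.13-fold above LM2, while the ratio of LM2 to Par was 1.81 (0.979 to 3.49). In the gene body, H3K27ac had no such common order. At chr20:9291263-9293265 the libraries had 0.912 and 1.57 CPM in Par, 10.4 and 11.7 in the LM2 libraries, and 4.08 and 6.02 in BrM2. At chr20:9221102-9222013 they had 0.684 and 0.261 CPM in Par, 5.89 and 6.91 in the LM2 libraries, and 4.33 and 1.00 in BrM2, with the BrM2 libraries far apart.

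The intronic peak chr20:9165820-9167399 was alike in the metastatic lines, with 6.82 and 7.18 CPM in LM2 and 5.61 and 6.02 in BrM2, against 0.684 and 2.09 in Par. The exception in the body was chr20:9389504-9389964, which overlaps an exon and was highest in BrM2, with 6.37 and 4.51 CPM against 1.40 and 1.33 in LM2 and 0.228 and 0 in Par. With 1 count in Par, its ratio of BrM2 to Par was 47.2 (95% counting interval 7.92 to 1918). Of the weakest peaks, chr20:9325466-9325786 had line means of 0.245 CPM in Par, 3.69 in LM2 and 0.510 in BrM2, and chr20:9199569-9199960 had 0.978, 2.02 and 1.89. Summed over the 7 peaks, PLCB4 had 6.39 ± 1.30 CPM (SD, n = 2) in Par, 35.1 ± 1.46 in LM2 and 40.1 ± 0.0585 in BrM2.

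**Figure D2:**
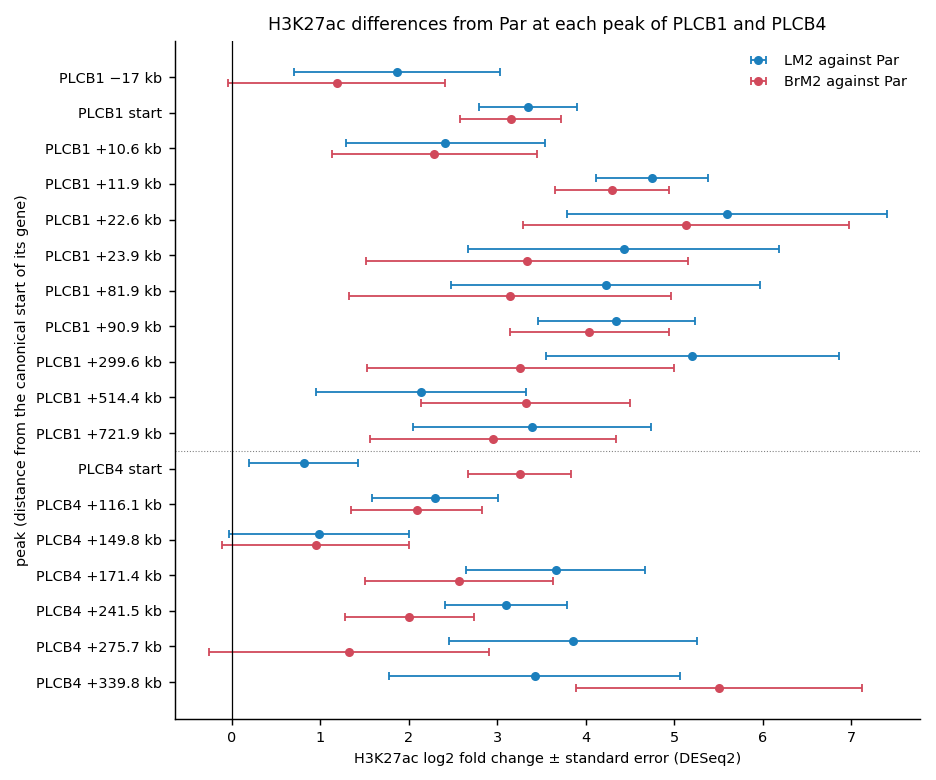
H3K27ac log2 fold change against Par, with its standard error from DESeq2, for LM2 and BrM2 at the 18 peaks of PLCB1 and PLCB4, ordered along the chromosome and labelled by distance from the canonical start of the gene. All 36 points lie above 0, which the choice of genes and the calling of peaks on merged libraries favoured. At the PLCB4 start the BrM2 value (3.25) is far above that of LM2 (0.81). Both contrasts share the Par libraries.

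All 18 H3K27ac peaks had fitted log2 fold changes above 0 against Par in both lines, with medians of 3.41 in LM2 and 3.15 in BrM2 beside medians of -0.02 over all H3K27ac peaks in both. Over the rest of chromosome 20, 49.8% and 49.3% of 1626 H3K27ac peaks were above 0. The genes were chosen with promoter H3K4me3 above Par, and peaks were called on merged libraries. A peak near 0 counts in Par thus entered through LM2 or BrM2, so values above 0 were favoured in advance. DESeq2 left 11 of the 18 without an adjusted p in LM2 and 10 in BrM2, since their counts were low. Of the rest, 6 were called higher in LM2 and 5 in BrM2, against 2.91% and 3.62% of all tested H3K27ac peaks, and nothing is read from these counts. Both LM2 libraries exceeded both Par libraries at all 18, against 24.7% of all peaks, and both BrM2 libraries did so at 16, against 24.8%. Without Par replicate 1, 2 of the peaks were called in LM2, and without LM2 replicate 1 or 2, 3 were.

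The H3K27ac libraries were also compared between BrM2 and LM2. PLCB4 was selected with its BrM2-high H3K4me3 at the same start known, so the test at that start is not independent support for the pattern. At the PLCB4 start H3K27ac was higher in BrM2, by 2.44 ± 0.52 (SE) on the log2 scale (DESeq2 adjusted p = 0.000419), in 2 of 2 libraries against both LM2 libraries. The difference kept its direction and a size between 2.26 and 2.59 under all alternatives run, but its adjusted p rose to 0.135 without LM2 replicate 1, 0.126 without BrM2 replicate 1 and 0.17 without BrM2 replicate 2. This was the only call among 7 tested peaks of PLCB1 and PLCB4, beside 1.68% of all tested peaks called higher and 1.19% called lower. At the PLCB1 start the difference was -0.20 ± 0.43 (DESeq2 adjusted p = 0.936), and at the intronic element +11.9 kb from it -0.45 ± 0.40 (DESeq2 adjusted p = 0.742). In the PLCB4 body, the element at +241.5 kb differed by -1.10 ± 0.59 (DESeq2 adjusted p = 0.424) and the one at +171.4 kb by -1.09 ± 0.80 (DESeq2 adjusted p = 0.644). The exon-overlapping peak at +339.8 kb, at 2.08 ± 0.87, had no adjusted p in DESeq2, and edgeR's quasi-likelihood test gave an adjusted p of 0.043. Both BrM2 libraries lay below both LM2 libraries at 9 of the 18 peaks, against 27.2% of all peaks.

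**Figure D3:**
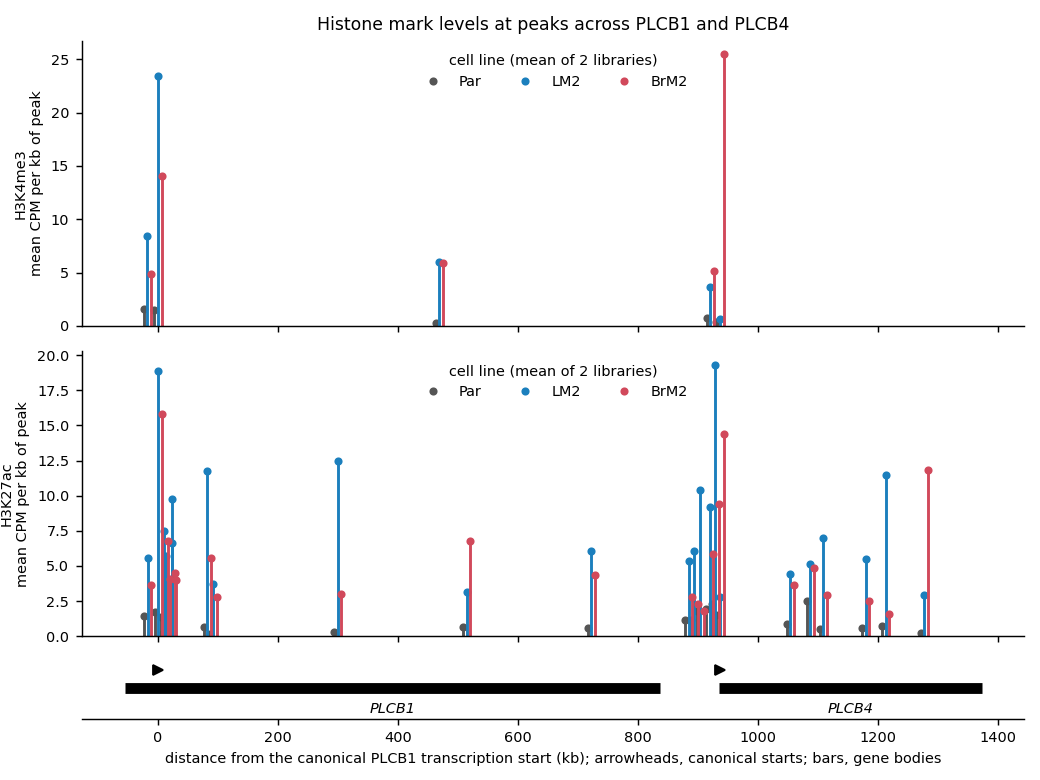
Mean CPM per kb at every peak across PLCB1 and PLCB4, for H3K4me3 (top) and H3K27ac (middle), by distance from the canonical PLCB1 start in kb, with gene bodies as bars below. Stems of the 3 lines are shifted sideways by 6 kb so that all can be seen, and each is a mean of 2 libraries. H3K4me3 stands at a few positions, with the tallest BrM2 stem at the PLCB4 start, while H3K27ac peaks of LM2 and BrM2 are scattered through both genes and the gap between them.

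The gap between the 2 genes held 1 H3K4me3 peak and 5 H3K27ac peaks that lay outside the windows. The strongest, the H3K27ac peak chr20:9030762-9034089, had 6.41 ± 0.939 CPM (SD, n = 2) in Par, 30.6 ± 3.01 in LM2 and 19.5 ± 2.02 in BrM2. It lies before the PLCB4 start, and its LM2 and BrM2 libraries were all above Par. The H3K4me3 peak chr20:9032730-9033507, inside it, had 0.584 ± 0.0160 CPM in Par, 2.84 ± 1.74 in LM2 and 4.01 ± 1.34 in BrM2. On the outer sides, the nearest H3K4me3 peak below the PLCB1 window, at the promoter of TMX4, had 106 ± 36.2 CPM in Par, 123 ± 41.4 in LM2 and 91.6 ± 34.4 in BrM2, and the nearest above the PLCB4 window, further from the gene, had between 1.38 and 4.17 CPM in all libraries. At both of these outer peaks the libraries of the 3 lines overlapped.

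**Figure D4:**
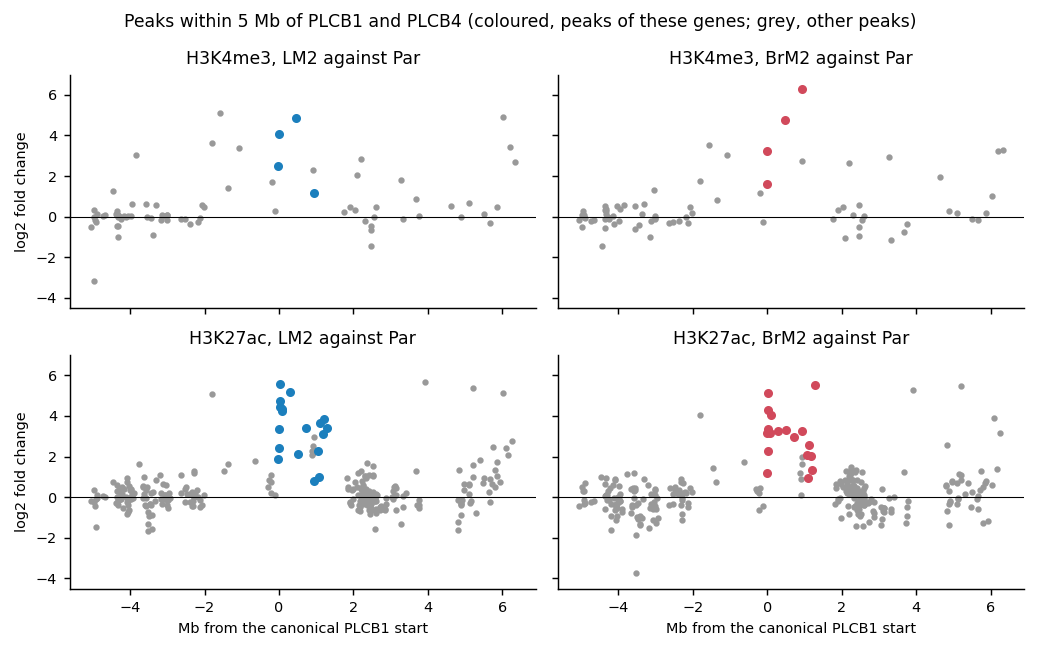
Log2 fold change against Par of every peak from 5 Mb below to 5 Mb above the 2 genes, for H3K4me3 (top) and H3K27ac (bottom) in LM2 (left) and BrM2 (right), by distance from the canonical PLCB1 start in Mb. Coloured points are peaks of PLCB1 and PLCB4 and grey points all others. The coloured points lie between 0.81 and 6.29, and the peaks outside the span are spread around 0, with medians between 0.01 and 0.07.

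Over the 5 Mb on either side of the span, 55.3% of 264 H3K27ac peaks had a log2 fold change above 0 in LM2 and 50.4% in BrM2, with medians of 0.07 and 0.01. For 74 H3K4me3 peaks the shares were 62.2% and 52.7%, with medians of 0.06 and 0.02. Closer by, the stretch of 2 Mb below the span was higher as well. All 7 of its H3K4me3 peaks and all 11 of its H3K27ac peaks had values above 0 in LM2, with medians of 1.71 and 0.84, and in BrM2 6 and 9 of them did, with medians of 1.15 and 0.39. The 2 Mb above the span did not share this, with 7 of 13 H3K4me3 peaks and 51 of 100 H3K27ac peaks above 0 in each line. Medians there were 0.213 and 0.004 in LM2 and 0.049 and 0.021 in BrM2. Of 9 neighbouring genes with a promoter H3K4me3 peak, BMP2, a bone morphogenetic protein ligand, was higher in LM2, with 64.5 and 49.1 CPM in Par, 163 and 134 in the LM2 libraries and 105 and 109 in BrM2 (log2 fold change 1.42 ± 0.37, DESeq2 adjusted p = 0.00778, lost without Par replicate 2 or LM2 replicate 1, and edgeR adjusted p = 0.0696). SNAP25, a synaptic vesicle fusion protein, had 2.58 and 2.98 CPM in Par, 8.72 and 13.6 in the LM2 libraries, and 0.873 and 1.86 in BrM2. Its rise in LM2 was 2.03 ± 0.61 (DESeq2 adjusted p = 0.0405, lost without any 1 of the 6 libraries, and edgeR adjusted p = 0.0987). Its difference between BrM2 and LM2 was -3.08 ± 0.65 (DESeq2 adjusted p = 0.000215, lost without LM2 replicate 2). FERMT1, TMX4, ANKEF1, MKKS, SLX4IP, JAG1 and BTBD3 did not pass DESeq2 without the block in either line, with log2 fold changes between -0.36 and 0.50. HAO1, LAMP5 and PAK5 had no promoter peak. With the replicate block, DESeq2 called 3 of the 9 neighbours in LM2 and 2 in BrM2, where over all H3K4me3 peaks it called 2896 and 3953. BMP2 and SNAP25 passed in LM2 in that fit (DESeq2 adjusted p = 5.17e-20 and 0.00315). H3K27ac at the BMP2 promoter was higher in LM2 by 1.64 ± 0.41 (DESeq2 adjusted p = 0.00441), lost without Par replicate 1, LM2 replicate 1 or LM2 replicate 2.

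PLCB2 and PLCB3, the contrast genes, had few calls, which depended on the fit. In DESeq2 without a block, 0 of 5 H3K4me3 peaks and 0 of 6 H3K27ac peaks passed, and at an unadjusted p under 0.05 the numbers were 1, 0 and 0 for H3K4me3 and 1, 1 and 1 for H3K27ac, in LM2 against Par, BrM2 against Par and BrM2 against LM2. The quasi-likelihood test of edgeR called 0 of the H3K4me3 peaks and 1 H3K27ac peak in each comparison. With the replicate block, DESeq2 called 1, 2 and 1 of the H3K4me3 peaks and 0 of the H3K27ac peaks. Over all peaks, DESeq2 without a block called 523, 810 and 726 of 22572 for H3K4me3, and 1808, 2715 and 1369 of 62195 for H3K27ac. With the block the numbers were 2896, 3953 and 4788, and 2631, 3994 and 2574. The quasi-likelihood test of edgeR without a block called 363, 693 and 635, and 3195, 4280 and 2419. Most peaks were thus not called, so the lack of calls at PLCB2 and PLCB3 does not set them apart. The PLCB3 start, chr11:64018211-64020931, had 97.1 and 97.0 CPM of H3K4me3 in Par, 76.7 and 88.2 in the LM2 libraries, and 86.0 and 109 in BrM2. Its log2 fold changes of -0.21 ± 0.31 in LM2 and -0.07 ± 0.31 in BrM2 were within the spread (DESeq2 adjusted p = 1 and 0.996), and the sign in BrM2 turned with total-count scaling. H3K27ac at the same start, chr11:64018512-64020126, had 15.5 and 24.3 CPM in Par, 14.1 and 17.8 in the LM2 libraries, and 15.0 and 21.1 in BrM2, with all lines overlapping.

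At the end of PLCB3, the peaks of both marks overlap transcript starts of BAD and GPR137, so that they cannot be assigned to PLCB3. The H3K4me3 peak chr11:64036157-64039143 had 48.4 and 50.5 CPM in Par, 48.7 and 52.5 in the LM2 libraries, and 90.4 and 71.6 in BrM2. Its log2 fold change in BrM2 was 0.66 ± 0.35 (DESeq2 adjusted p = 0.508), and with the replicate block it passed at 0.63 (DESeq2 adjusted p = 0.00194). Against LM2 it was 0.60 ± 0.35 (DESeq2 adjusted p = 0.572, and 0.00459 with the replicate block). The H3K27ac peak there, chr11:64035128-64039154, was between 40.9 and 47.9 CPM in all libraries. In the body of PLCB3, the H3K27ac peak chr11:64029620-64031116 had 2.51 and 3.65 CPM in Par, 6.05 and 5.05 in the LM2 libraries and 1.53 and 2.51 in BrM2, and no test of it passed in DESeq2 (adjusted p = 0.769 in LM2 and 0.803 in BrM2).

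PLCB2 had its H3K4me3 inside the gene rather than at its start. The strongest peak, chr15:40573880-40575591, overlaps the start of ANKRD63 and had 34.4 and 25.9 CPM in Par, 61.3 and 53.8 in the LM2 libraries, and 51.9 and 41.9 in BrM2. Its log2 fold change in LM2 was 0.96 ± 0.40 (DESeq2 adjusted p = 0.283), and with the replicate block 0.98 (DESeq2 adjusted p = 5.27e-06). In BrM2 it was 0.57 ± 0.40 (DESeq2 adjusted p = 0.76, and 0.0141 with the replicate block). The H3K27ac peak over it, chr15:40573775-40575424, had 4.79 and 6.26 CPM in Par, 13.8 and 13.6 in the LM2 libraries, and 9.94 and 11.5 in BrM2 (DESeq2 adjusted p = 0.124 in LM2 and 0.32 in BrM2, and edgeR adjusted p = 0.0496 in LM2). An internal PLCB2 start, chr15:40583115-40583963, had 6.88 and 6.55 CPM of H3K4me3 in Par, 11.7 and 11.3 in the LM2 libraries, and 8.73 and 7.81 in BrM2 (DESeq2 adjusted p = 0.801 and 0.996), and its H3K27ac peak, chr15:40583218-40583864, had line means between 4.01 and 6.95 CPM.

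The canonical PLCB2 start carried a short H3K4me3 peak 182 bases upstream, chr15:40600318-40600627, with 0 and 2 counts in Par, 1 and 2 in the LM2 libraries and 4 and 20 in BrM2. Its ratio of BrM2 to Par was 9.68 (95% counting interval 2.40 to 84.5; DESeq2 adjusted p = 0.534). The H3K27ac peak at that start, chr15:40600300-40600996, had 0.912 and 1.57 CPM in Par, 1.09 and 0.532 in the LM2 libraries, and 5.35 and 4.51 in BrM2. The BrM2 libraries were above all others, with a log2 fold change against Par of 2.01 ± 0.89 (DESeq2 adjusted p = 0.209, edgeR adjusted p = 0.0468). Against LM2, DESeq2 gave no adjusted p and edgeR 2.54 (adjusted p = 0.0189). Summed over its 3 peaks, H3K27ac of PLCB2 was 10.8 ± 3.95 CPM (SD, n = 2) in Par, 18.8 ± 0.0862 in LM2 and 22.6 ± 0.624 in BrM2, and that of PLCB3 was 66.0 ± 7.83, 62.8 ± 1.499 and 66.8 ± 3.31. Without the peak shared with BAD and GPR137, the PLCB3 sums were 22.97 ± 7.01, 21.5 ± 1.92 and 20.1 ± 4.94 CPM. The PLCB2 sums include the peak over the ANKRD63 start, whose means in Par, LM2 and BrM2 were 5.53, 13.7 and 10.7 CPM. The peak at the internal PLCB2 start had 4.01, 4.33 and 6.95 CPM, and that at the canonical start 1.24, 0.809 and 4.93. Most of the LM2 rise in the sum thus lay at the ANKRD63 peak.

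Profiles of promoter H3K4me3 over the 6 libraries, as log2(CPM + 1) relative to the Par mean, were compared between PLCB1 or PLCB4 and 13503 other protein-coding genes. Those nearest to PLCB1, by the root mean square difference in log2 units, were FBXL7 (0.255), RASEF (0.452), CHST9 (0.646), EMB (0.709) and GYPC (0.728). FBXL7, an F-box protein, had line means of 3.88 CPM in Par, 56.8 in LM2 and 46.6 in BrM2. Those nearest to PLCB4 were KCNN2 (0.498), KIRREL3 (0.504), NRK (0.593), ZNF257 (0.616) and ZNF492 (0.647). KCNN2, a calcium-activated potassium channel, had 3.61 CPM in Par, 3.24 in LM2 and 95.02 in BrM2, and KIRREL3, a cell adhesion protein, 0.665, 0.775 and 37.6. ZNF257 and ZNF492 belong to a family of similar zinc finger genes, and how reads were divided among such copies is uncertain. The 6 libraries share the lines and totals with PLCB1 and PLCB4, and likeness says nothing of shared control.

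The number of called genes of the same signalling route depended on the fit. Of 93 listed genes, 72 had a promoter H3K4me3 peak, whose log2 fold changes against Par had medians of 0.20 (LM2) and -0.07 (BrM2), beside -0.01 and -0.08 over all 13780 genes with such a peak. In LM2 3 were called higher and 0 lower, where over all 13780 genes 202 were higher and 68 lower. In BrM2 2 and 0 were called, where over all genes 246 were higher and 108 lower. The pathway genes had 10 and 7 at an unadjusted p under 0.05 in the 2 lines. Without a block edgeR called 2 and 2, where over all H3K4me3 peaks it called 363 and 693. With the replicate block, DESeq2 called 15 and 17. That block also raised the calls over all H3K4me3 peaks, from 523 to 2896 in LM2 and from 810 to 3953 in BrM2. These numbers cover all peaks and not only promoter peaks, so the size of the rise cannot be compared directly. Each call of DESeq2 without the block was lost without any 1 of the 4 libraries of the lines compared. For H3K27ac, 69 genes had a promoter peak, with medians of 0.00 and -0.14, beside -0.14 and -0.07 over all 13899 genes, and 2 were called higher in each line, where over all genes 108 were higher in LM2 and 164 in BrM2.

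Upstream of the enzymes, the 4 alpha subunit genes of the Gq family had promoter H3K4me3 peaks and 0 were called in either line (DESeq2), with 1 in LM2 and 0 in BrM2 at an unadjusted p under 0.05 and 0 called by edgeR. With the replicate block, which raised the calls over all H3K4me3 peaks, DESeq2 called 1 in LM2 and 2 in BrM2. Of 21 Gq-coupled receptor genes with a peak, EDNRA, an endothelin receptor, had 18.9 and 20.4 CPM in Par, 46.4 and 42.2 in the LM2 libraries, and 36.9 and 34.3 in BrM2, a log2 fold change in LM2 of 1.22 ± 0.37 (DESeq2 adjusted p = 0.0462, edgeR adjusted p = 0.0557, and lost without any 1 of the 6 libraries). For CHRM3, a muscarinic acetylcholine receptor, the strongest promoter peaks of the 2 marks lay near separate starts, and weaker peaks were not compared. Its H3K4me3 peak had 0.287 and 1.49 CPM in Par, 0.459 and 1.12 in the LM2 libraries, and 8.95 and 12.3 in BrM2, a rise in BrM2 of 3.41 ± 0.79 (DESeq2 adjusted p = 0.00112). Its H3K27ac peak, near another start, rose in both lines, with 8.89 and 5.22 CPM in Par, 37.7 and 40.7 in the LM2 libraries and 28.6 and 23.1 in BrM2 (log2 fold changes 2.40 ± 0.39 and 1.87 ± 0.40, DESeq2 adjusted p = 2.6e-07 and 0.000262). The LM2 call of H3K27ac at CHRM3 held without each of the 6 libraries in turn, and the BrM2 call was lost without BrM2 replicate 1.

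Among the other phospholipases C, 10 of 11 genes had a promoter H3K4me3 peak and PLCH2 was called in LM2. It held 0 counts in both Par libraries and 8 and 37 in LM2, at least 10.8-fold higher than a floor of 3 counts over the Par libraries (DESeq2 adjusted p = 0.0274). PIP5K1B, a kinase that makes the substrate PIP2, had 14.9 and 16.4 CPM in Par, 41.5 and 40.5 in the LM2 libraries, and 45.4 and 40.9 in BrM2. Its rises of 1.43 ± 0.38 in LM2 and 1.41 ± 0.38 in BrM2 passed the test (DESeq2 adjusted p = 0.00913 and 0.00757). Downstream, 0 of the 3 IP3 receptor genes and 0 of the 8 protein kinase C genes with a peak were called by H3K4me3 in DESeq2 (at an unadjusted p under 0.05, 1 protein kinase C gene in each line and 0 IP3 receptor genes; edgeR, 0). With the replicate block, which raised the calls over all H3K4me3 peaks, DESeq2 called 3 protein kinase C genes in each line. It called 0 IP3 receptor genes in LM2 and 1 in BrM2. H3K27ac at protein kinase C promoters rose at PRKCZ in LM2 by 1.68 ± 0.42 (DESeq2 adjusted p = 0.00372) and at PRKCQ in BrM2 by 1.54 ± 0.44 (DESeq2 adjusted p = 0.0133), and both calls were lost without any 1 of the 4 libraries of the lines compared.

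**Figure D5:**
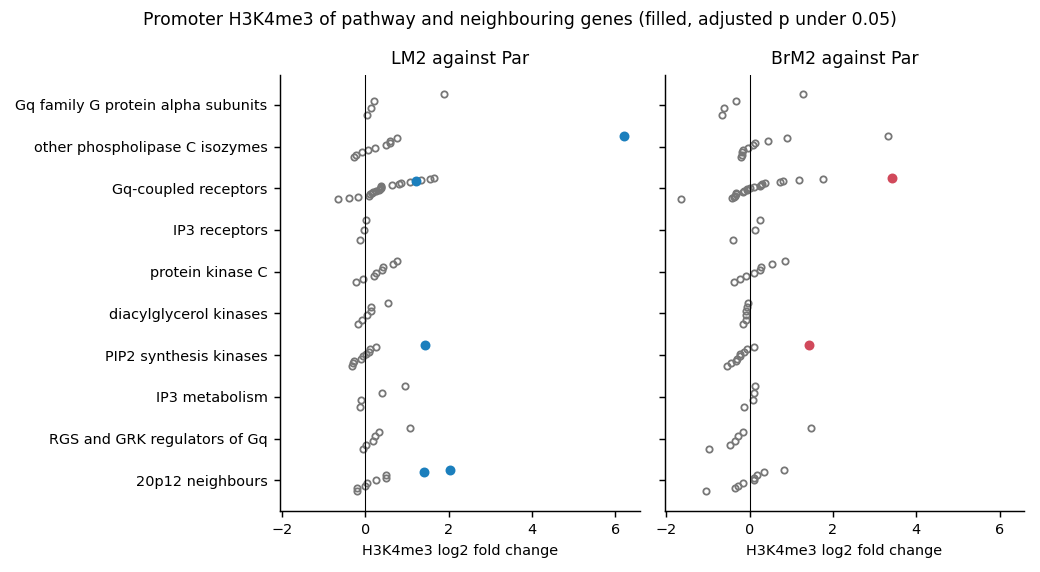
Promoter H3K4me3 log2 fold change against Par in LM2 (left) and BrM2 (right) for genes of the phospholipase C route and for neighbours of PLCB1 and PLCB4, 1 point a gene, grouped by role and stacked by rank within a group. Filled points passed an adjusted p under 0.05 in DESeq2. Most points lie near 0, and the filled points in the pathway groups are 3 in LM2, PLCH2 (6.20), EDNRA (1.22) and PIP5K1B (1.43), and 2 in BrM2, CHRM3 (3.41) and PIP5K1B (1.41).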

How the data were processed

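Counts were deposited by the authors as raw reads per peak in 2 tables, 1 for each mark, in hg19 coordinates. Per the study's methods and processing notes, reads were trimmed with Trimmomatic 0.32, aligned with Bowtie2 2.3.4.3 and cleared of duplicates with Picard 2.18.21, broad peaks were called with MACS2 2.1.2 on merged libraries, and featureCounts 1.6.0 counted reads extended to 150 bases. Since peaks were called on merged libraries, a peak need not be present in each line. The 3 input libraries were not used here.

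Members and gene lists were chosen with earlier results of these data known. Peaks were assigned by GENCODE release 44 gene bodies lifted to GRCh37. All peaks of a mark were fitted over its 6 libraries with DESeq2 1.42.0 (R 4.3.3; Wald test, unshrunken log2 fold changes, adjusted by Benjamini-Hochberg over all peaks, threshold 0.05). The contrast of LM2 and BrM2 together against Par was fitted but is not given, since it averages lines that differ at PLCB4. CPM was computed from the total count in peaks, and ratios of pooled counts have exact 95% conditional intervals. A promoter peak lies within 2 kb of a transcript start, and for each listed gene the one with the highest mean CPM was used. All H3K4me3 peaks of the 4 genes were named in full. For H3K27ac, those over an H3K4me3 peak and, per gene, the 4 others with the highest mean CPM were named by rule, and the weaker ones were added after their values were seen. Of the listed genes, at most 8 called ones per contrast were named, with all neighbours. For likeness, the 5 nearest genes with a mean count of at least 10 were taken.

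Alternatives were edgeR 4.0.16 (quasi-likelihood, TMM), the replicate number as a block in both tools, total-count scaling, a mean count of at least 10, subtraction of the chromosome 20 median, other window rules, and each library left out in turn. Replicates 1 of the lines departed from their means together, and so did replicates 2 (Pearson r of 0.645 to 0.691 across H3K4me3 peaks and 0.268 to 0.345 across H3K27ac peaks, for each pair of lines), so the numbers were taken to pair the libraries. The main fit nonetheless left this pairing out, so its errors include the replicate difference that the lines share. With the block more peaks were called, and a peak not called in the main fit is not shown to be unchanged. No replicate pair looked like 1 library deposited again: the chi-square of their counts, over its degrees of freedom, was between 2.425 and 14.498. The fits were tested on simulated counts.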

Additional observations from a re-analysis of the deposited data

Results flagged for a closer look

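H3K27ac at the PLCB4 start stood out because the effect of the metastatic sub-population differed between BrM2 and LM2 when the difference itself was tested. The log2 difference between BrM2 and LM2 was 2.44 (DESeq2 adjusted p = 0.000419), with both BrM2 libraries above both LM2 libraries. Its adjusted p ranged over the alternatives up to 0.17. PLCB4 was selected with its H3K4me3 at this start known, so the test is not independent support.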

How the results depend on the processing

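Calls at PLCB1 and PLCB4 depended mainly on the tool for H3K27ac and on the replicate block for H3K4me3. For H3K4me3, in LM2 against Par, the DESeq2 replicate block called 3 peaks of PLCB1 and PLCB4, 1 of PLCB2 and PLCB3 and 15 pathway promoters, and the edgeR replicate block 3, 2 and 29. In BrM2 against Par the DESeq2 block called 2 of PLCB2 and PLCB3 and 17 pathway promoters, and the edgeR block 4, 3 and 30. In BrM2 against LM2 the blocks called 2, 1 and 21 in DESeq2 and 2, 3 and 39 in edgeR. For H3K27ac, edgeR without a block called 12, 10 and 2 peaks of PLCB1 and PLCB4 in the 3 comparisons and 14, 12 and 4 with it, and of PLCB2 and PLCB3 it called 1, 1 and 1 without and 1, 1 and 2 with it. Pathway promoters with H3K27ac numbered 4, 5 and 3 in the DESeq2 block, 9, 13 and 10 in the edgeR block, and 4 in BrM2 against Par in edgeR without it. Over all peaks, the DESeq2 block moved the calls from 523, 810 and 726 to 2896, 3953 and 4788 for H3K4me3, and from 1808, 2715 and 1369 to 2631, 3994 and 2574 for H3K27ac. In edgeR the block moved them from 363, 693 and 635 to 5903, 7512 and 8720 of 22572 for H3K4me3. For H3K27ac the edgeR numbers were 3195, 4280 and 2419 without the block and 8213, 9892 and 7803 with it, of 62195. Without 1 library, H3K27ac calls at PLCB1 and PLCB4 ranged from 2 to 5 in LM2, from 3 to 5 in BrM2 and from 0 to 1 between them, and pathway calls from 0 to 1, 0 to 2 and 0 to 1 for H3K4me3 and 1 to 2, 0 to 2 and 0 to 1 for H3K27ac. Of the alternatives for log2 fold changes of named peaks, 835 kept direction and side of the threshold, 43 gained and 24 lost a call, and 16 changed sign.

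Total-count scaling turned the H3K4me3 value of the PLCB3 start in BrM2 to 0.011. The other changes of sign came from leaving out 1 library, and the ranges over all alternatives run were as follows. For H3K4me3 they were -0.072 to 0.188 at the end of PLCB3 in LM2, -0.326 to 1.880 at the PLCB2 start in LM2, -0.220 to 0.072 at the PLCB3 start in BrM2, and -1.115 to 0.419 at the PLCB1 peak at +468.7 kb between BrM2 and LM2. For H3K27ac they were -0.483 to 0.855 at the internal PLCB2 start in LM2, -0.444 to 0.207 at the PLCB3 start in BrM2, and -0.472 to 2.653 at the upstream PLCB1 start in BrM2. Between BrM2 and LM2 they were -0.011 to 0.478 at the PLCB3 start, -2.339 to 0.371 at the upstream PLCB1 start, and -0.785 to 0.475 at the PLCB1 peak at +10.6 kb. The cause of these changes was not tested. With a pseudocount of 0.5, WDR72 replaced EMB among the genes nearest to PLCB1, and those nearest to PLCB4 were unchanged in membership. Low counts limit most H3K27ac peaks in the gene bodies.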
